A study of Mus musculus with 6 samples.

Results

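The mitochondrial ribosomal proteins are the proteins of the ribosome that works inside mitochondria. They were followed in platelets, the blood cells without a nucleus that megakaryocytes release. The genes were taken by symbol, as the protein-coding genes of the mouse annotation named Mrpl or Mrps with a number, and Dap3. Of 79 such genes, 68 had a row in the deposited tables of 9822 genes, 47 of the large subunit, 20 of the small subunit and Mrps36, whose place in the ribosome is uncertain. Mrps30 and Mrps18a were counted with the large subunit, where their proteins sit despite their names. The other 11 genes, Mrpl23, Mrpl36, Mrpl47, Mrpl55, Mrps5, Mrps10, Mrps17, Mrps18b, Mrps22, Mrps28 and Mrps31, were not analysed here. Every gene in the tables exceeded 0.5 CPM, counts scaled to the size of the library, in at least 3 of the 6 libraries. A gene with 3 libraries above that level could therefore be listed on the strength of 1 genotype, and the 68 are not the whole family.

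The mutant libraries came from male mice of the BalB/c background that carried the Nxf1+/C587R genotype, and the wild-type libraries came from wild-type littermate males. Nxf1 encodes the main export receptor for mRNA, and the comparison asked which transcripts of platelets differ between these genotypes. Each genotype had 3 libraries of polyA RNA, each from pooled suspensions that had passed a check of purity (over 98% CD41+ platelets by flow cytometry), and 1 pool of each genotype was prepared on each of 3 days. How many mice went into a pool is not stated in the labels, and the p-values below reflect pool-to-pool spread only. Differences are log2 fold changes of mutant over wild type, each with its SE, unless another scale is named.

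Mitochondria keep a small genome of their own, and its messages, which encode core subunits of the respiratory chain and of ATP synthase, are read by the mitochondrial ribosome. The RNAs of this ribosome come from the mitochondrial genome, while all of its proteins are encoded by nuclear genes, translated in the cytosol and imported. Many of the proteins have bacterial counterparts and others are found only in mitochondria. Platelets contain mitochondria but have no nucleus, so their nuclear-encoded transcripts were inherited from the megakaryocyte.

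The libraries held 25189231 to 29421549 counts, of which the 68 genes took 5727 to 6078 counts in mutant and 5850 to 7080 counts in wild-type libraries. All 18 platelet markers examined had a row, with summed levels of 55018.5 to 59341.9 CPM in mutant and 42212.4 to 50707.2 CPM in wild-type libraries, and 9 of them were higher and 2 lower by the test below. The 15 B cell markers summed to 354.0 to 433.4 CPM in mutant and 438.3 to 575.6 CPM in wild-type libraries, and 6 of them were lower. Of 16 neutrophil and monocyte markers 9 had a row, summing to 1785.7 to 2096.8 CPM in mutant and 1170.2 to 1609.0 CPM in wild-type libraries, and the granule genes Elane, Mpo, Ltf, Camp and Ngp were among the markers without a row. In that list Lyz2, a lysozyme gene of myeloid cells, was higher (0.49, edgeR adjusted p = 0.00935) and Ly6c2, a surface antigen of monocytes, lower (-0.76, 0.0307). Lyz2 made up most of the sum, at 1764.8 to 2079.8 CPM in mutant and 1147.9 to 1586.6 CPM in wild-type libraries. Of 13 T and NK cell markers 10 had a row, and they summed to 26.0 to 28.0 CPM in mutant and 26.4 to 31.9 CPM in wild-type libraries. Erythroid markers, 10 of 14 with a row, stood at 31530.1 CPM in the mutant and 35729.4 CPM in the wild-type library of day 1, and at 3974.3 to 4566.5 CPM in the other 4 libraries. Platelet and B cell sums, and the myeloid sum through Lyz2, thus moved with genotype, and their part in the results below was not tested. In bulk samples, fewer cells of a type and less RNA per cell cannot be told apart. Nxf1 itself differed by -0.19 ± 0.22 (edgeR adjusted p = 0.604), and a missense change need not alter its level.

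Per length of transcript, the levels of the 68 genes spanned 438.9-fold. On the scale of RPKM, which is CPM per kilobase of transcript, Mrpl14, a large-subunit protein at the interface between the subunits, was the most abundant. Its RPKM was 69.5, 68.3 and 53.6 in mutant libraries, against 54.0, 55.5 and 41.7 in wild-type libraries, in the order of the 3 days. Mrps21, a small-subunit protein with a bacterial counterpart, followed with 38.8, 38.7 and 31.5 RPKM in mutant libraries and 29.6, 30.9 and 24.9 RPKM in wild-type libraries. Mrps24, a small-subunit protein that lines the path by which the message enters, had 31.0, 29.8 and 24.5 RPKM in mutant libraries and 27.6, 24.9 and 21.1 RPKM in wild-type libraries. Mrpl14 stayed above the other genes in every library, and Mrps21 was above Mrps24 in each library, although their ranges overlapped among wild-type libraries. Mrpl10 and Mrpl20 came next, at means of 14.3 and 11.0 RPKM over the 6 libraries. Over all 9822 genes, Mrpl14 ranked 681, Mrps21 973 and Mrps24 1084 by mean RPKM. The lowest were the large-subunit genes Mrpl17 (0.164 RPKM) and Mrpl1 (0.130 RPKM) and the small-subunit gene Mrps25 (0.144 RPKM). Precision was low there, since Mrpl1 rested on 8 to 17 counts in mutant and 15 to 21 counts in wild-type libraries. The median gene of the family stood at 1.41 RPKM, against 1.42 RPKM over all genes. By CPM, which does not correct for length, the family's median was 1.58 against 3.67 over all genes, and its median transcript was 1055 bases long against 2781.

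Of the 68 genes, 3 were lower and 0 were higher in mutant platelets, by edgeR's quasi-likelihood test with genotype as the only term and Benjamini-Hochberg adjustment over all 9822 genes at 0.05. Among all genes, 12.9% were called higher and 9.16% lower. The family's 4.41% of lower calls was below that background, and it had no higher call where the table had 1266. Calls were fewer at low levels. Under a mean of 3 CPM, 0 of 51 genes of the family were higher and 1 lower, against 133 and 289 of 4443 genes. At an unadjusted p under 0.05 there were 11 of the 68 genes and 3220 of all 9822 genes. DESeq2 and limma-voom with genotype alone called the same 3 genes and no other.

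Mrpl10, which forms the base of the stalk where translation factors dock on the large subunit, fell. Its level was 17.5, 19.1 and 21.3 CPM in mutant libraries, against 27.6, 28.1 and 31.2 CPM in wild-type libraries. The groups did not overlap, and all 3 mutant libraries lay below every wild-type library. Mutant pools averaged 19.3 ± 1.89 CPM and wild-type pools 29.0 ± 1.94 CPM (mean ± SD, n = 3), a difference of -0.59 ± 0.12 on the log2 scale (edgeR adjusted p = 0.00114). Mrpl10 (Entrez 107732, chr11:97041582-97049213, GRCm38.p6) passed in all 22 alternative analyses, with an adjusted p of at most 0.0169. The alternative without a filter repeats the main fit, since the filter removed 0 genes.

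Mrps14, a protein of the head of the small subunit, fell as well. It had 3.28, 4.29 and 3.15 CPM in mutant libraries, against 5.80, 6.53 and 5.04 CPM in wild-type libraries, again without overlap. Mutant pools averaged 3.57 ± 0.622 CPM and wild-type pools 5.79 ± 0.744 CPM (mean ± SD, n = 3). The log2 difference was -0.69 ± 0.17 (edgeR adjusted p = 0.00644). Mrps14 (Entrez 64659, chr1:160195215-160201186) passed in all 21 alternatives that tested it, with an adjusted p of at most 0.0494.

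Mrpl35, a large-subunit protein with a bacterial counterpart, showed the largest difference of the family at a low level. It had 0.783, 0.776 and 0.556 CPM in mutant libraries, from 15 to 21 counts, against 1.20, 1.41 and 1.74 CPM in wild-type libraries, from 31 to 54 counts. The groups did not overlap, and the widest gap was on day 3. The log2 difference was -1.05 ± 0.27 (edgeR adjusted p = 0.00797). Mrpl35 (Entrez 66223, chr6:71812997-71823784) lost the call without day 3, where it differed by -0.73 (edgeR adjusted p = 0.0905). It also lost it by DESeq2 with the day as a block (-1.04, adjusted p = 0.0584).

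**Figure D1:**
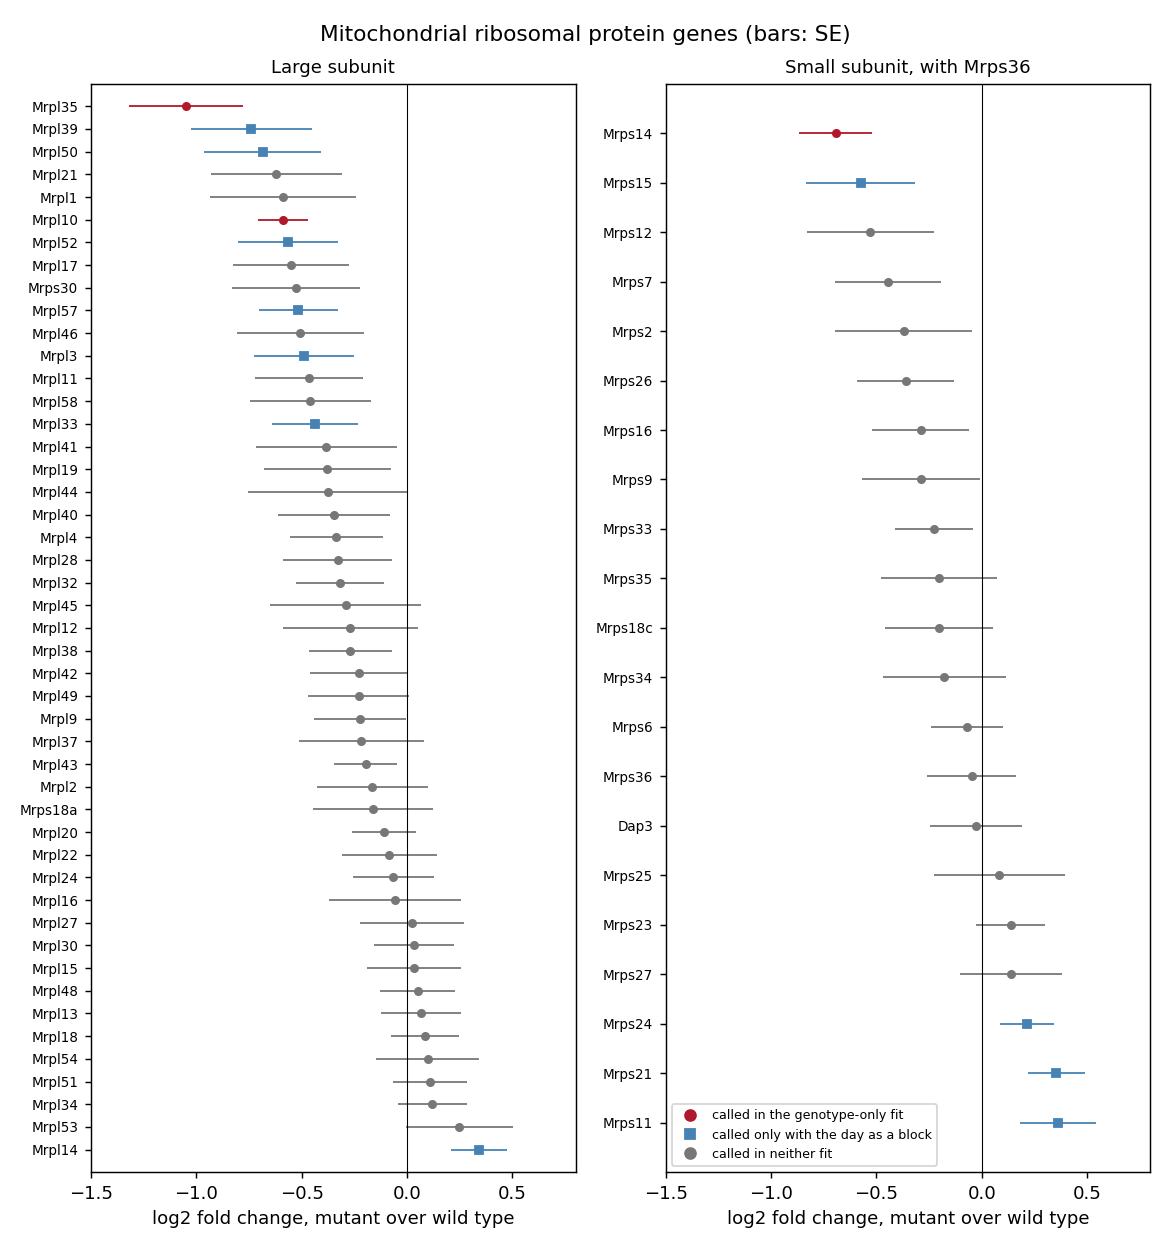
Log2 fold change of each of the 68 genes, mutant over wild type (x axis), with its SE as a bar, for the large subunit on the left and the small subunit with Mrps36 on the right. Red marks the 3 genes called with genotype alone, blue the 11 called only in the fit by day, and most points lie left of 0.

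The promoter windows of these 3 genes and of Mrps21 and Mrpl14, called higher in the fit by day described next, are shown to put genes of opposite direction side by side. The windows run from 250 bases before to 50 bases after an annotated start site (RefSeq, GRCm38.p6), are written 5′ to 3′ on the gene's strand, and carry matches to 7 searched motifs in capitals.
Mrpl10 promoter, chr11:97041332-97041631, plus strand: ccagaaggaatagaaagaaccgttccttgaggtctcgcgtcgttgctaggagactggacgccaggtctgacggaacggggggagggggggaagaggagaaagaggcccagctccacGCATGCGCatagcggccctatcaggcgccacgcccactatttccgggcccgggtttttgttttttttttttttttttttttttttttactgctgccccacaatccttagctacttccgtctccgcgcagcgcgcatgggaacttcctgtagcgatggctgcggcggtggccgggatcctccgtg
Mrps14 promoter, chr1:160194965-160195264, plus strand: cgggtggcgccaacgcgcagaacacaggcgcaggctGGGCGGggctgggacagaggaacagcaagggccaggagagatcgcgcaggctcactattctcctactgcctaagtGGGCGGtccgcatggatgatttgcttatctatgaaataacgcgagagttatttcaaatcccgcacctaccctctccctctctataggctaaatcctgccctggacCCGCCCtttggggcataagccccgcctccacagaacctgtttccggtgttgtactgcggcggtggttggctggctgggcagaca
Mrpl35 promoter, chr6:71823735-71824034, minus strand: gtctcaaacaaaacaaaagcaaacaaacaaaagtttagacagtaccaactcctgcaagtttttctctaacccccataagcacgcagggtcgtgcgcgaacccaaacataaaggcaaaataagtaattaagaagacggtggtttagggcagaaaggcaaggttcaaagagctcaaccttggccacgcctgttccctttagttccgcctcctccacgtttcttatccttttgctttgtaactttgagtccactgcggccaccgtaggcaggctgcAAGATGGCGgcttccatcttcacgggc
Mrps21 promoter, chr3:95871465-95871764, minus strand: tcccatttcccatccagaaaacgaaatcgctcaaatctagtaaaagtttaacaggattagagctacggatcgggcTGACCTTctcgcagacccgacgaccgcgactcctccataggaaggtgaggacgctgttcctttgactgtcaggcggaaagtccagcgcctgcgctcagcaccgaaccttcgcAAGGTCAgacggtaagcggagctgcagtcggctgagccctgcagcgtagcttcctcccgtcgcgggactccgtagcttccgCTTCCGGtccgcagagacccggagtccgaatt
Mrpl14 promoter, chr17:45686099-45686398, plus strand: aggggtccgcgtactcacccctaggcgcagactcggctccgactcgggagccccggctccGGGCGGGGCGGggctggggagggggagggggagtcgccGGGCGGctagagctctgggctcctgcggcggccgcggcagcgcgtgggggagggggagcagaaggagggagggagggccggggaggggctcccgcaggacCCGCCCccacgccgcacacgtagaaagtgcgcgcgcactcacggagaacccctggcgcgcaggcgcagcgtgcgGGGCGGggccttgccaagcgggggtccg
The window of Mrpl14 belongs to a start inside its annotated locus (chr17:45685722-45698495). The capitals in Mrpl10 are the NRF1 motif GCGCATGC read on the opposite strand, 134 bases before the start site. Those in Mrps14 are 3 matches to the SP1 motif GGGCGG, and those in Mrpl35 are the YY1 motif AAGATGGCG, 23 bases after the start. Mrps21 held the ETS motif CCGGAAG on the opposite strand and the ERR motif AAGGTCA once on each strand, and Mrpl14 held 5 matches to GGGCGG, of which 2 share bases. The 3 lower genes had no motif in common in these windows.

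Across the family, 59 genes had 65 promoter entries. On either strand, 36.9% of these entries held CCGGAAG, against 18.5% of the entries of all genes tested and 8.86% of all 32851 entries in the table. AAGATGGCG was in 10.8% of the family's entries, against 3.34% and 1.40%, and GCGCATGC was in 10.8%, against 5.45% and 2.71%. GGGCGG was in 50.8% of the family's entries, against 62.6% of those of tested genes and 35.7% of all. The NF-Y motif CCAAT (40.0%, 37.2% and 37.4%), the E box CACGTG (9.23%, 9.89% and 7.15%) and AAGGTCA (4.62%, 3.34% and 4.72%) stood nearer to both backgrounds. CCGGAAG and GGGCGG matches shared bases in 2 of the family's entries, and matches to 1 motif overlapped each other in others. A match describes the letters only.

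With the preparation day as a block in the edgeR fit, 10 of the 68 genes were lower and 4 higher. Over all genes, 18% were called lower and 22% higher in that fit. The family's 14.7% lower was near that background and its 5.88% higher was below it. Under a mean of 3 CPM, 7 of 51 genes of the family were lower and 0 higher, against 593 and 266 of 4443 genes. The 3 genes above were among the 10. Each of the 4 higher genes was higher in the mutant library on all 3 days.

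Mrps21 had 15.8, 15.8 and 12.8 CPM in mutant libraries on days 1 to 3, against 12.1, 12.6 and 10.1 CPM in wild-type libraries, and it was the 1 gene of the family whose mutant libraries all lay above every wild-type library. The log2 difference of 0.35 ± 0.13 had an edgeR adjusted p of 0.0667 with genotype alone and 2.71e-04 with the block. Mrpl14, on which the assembly factor Malsu1 docks, had 41.3, 40.6 and 31.9 CPM in mutant libraries and 32.2, 33.0 and 24.8 CPM in wild-type libraries. The groups overlapped through day 3, but the mutant library was higher on each day, by 0.34 ± 0.13 in all on the log2 scale (edgeR adjusted p of 0.0776, and 1.71e-05 with the block). Its value is uncertain, because Mrpl14 overlaps Tmem63b (0.70, edgeR adjusted p = 0.00321) and the library kit does not mark strand. Mrps24 had 31.2, 30.0 and 24.7 CPM in mutant libraries and 27.8, 25.0 and 21.3 CPM in wild-type libraries. It differed by 0.21 ± 0.13 (edgeR adjusted p of 0.268, and 0.0146 with the block). Mrps11, a protein of the platform of the small subunit, was the fourth, at 0.36 ± 0.18 (edgeR adjusted p of 0.169, and 0.025 with the block), and was named after its values were seen. Without mutant replicate 3, Mrps21 (0.45, edgeR adjusted p = 0.0243) and Mrpl14 (0.45, 0.0145) were called higher with genotype alone.

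These higher calls depended on the scaling. With TMM factors computed from genes of at least 10 CPM, the median log2 fold change of all genes moved to -0.21, against -0.04 with factors from all genes. With genotype alone, 807 of all genes (8.22%) were then higher and 1397 (14.2%) lower, against 1266 and 900, and 0 of the family were higher and 5 (7.35%) lower. In that scaling with the block, 14.5% of all genes were called higher and 33.4% lower, and 1 of the 68 genes was higher (Mrpl14) and 25 lower, a share of 36.8%. Mrpl14 then differed by 0.18 (edgeR adjusted p = 0.0135 with the block), Mrps21 by 0.19 (0.0692) and Mrps24 by 0.05 (0.596). A correction for length and GC content moved them the other way. With it and genotype alone, Mrps21 (0.56, edgeR adjusted p = 0.00122) and Mrpl14 (0.44, 0.00887) were called higher, and Mrps24 was not (0.25, 0.144).

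The lower genes added by the block were all under 4.1 CPM in every library. Mrpl57, a large-subunit protein found only in mitochondria, had 2.87, 2.37 and 2.48 CPM in mutant libraries, against 4.06, 3.87 and 3.17 CPM in wild-type libraries, without overlap. It differed by -0.52 ± 0.19 (edgeR adjusted p of 0.054, and 0.00306 with the block). Mrpl52, also specific to mitochondria, had 1.01, 1.72 and 1.71 CPM in mutant libraries and 1.97, 2.45 and 2.13 CPM in wild-type libraries. The difference was -0.57 ± 0.24 (edgeR adjusted p of 0.0985, and 0.0107 with the block). Mrps15, which binds the RNA of the small subunit, had 1.27, 1.06 and 1.34 CPM in mutant libraries and 1.66, 1.29 and 2.45 CPM in wild-type libraries. The groups overlapped, and the difference was -0.57 ± 0.26 (edgeR adjusted p of 0.126, and 0.0229 with the block). With genotype alone, Mrps15 differed by -0.27 (edgeR adjusted p = 0.548) without wild-type replicate 3 and by -0.80 (0.044) without wild-type replicate 2. Mrpl57 was called without wild-type replicate 3 (-0.62, edgeR adjusted p = 0.024). The remaining 4, named after their values were seen, were Mrpl39 and Mrpl50, specific to mitochondria, the small protein Mrpl33 and Mrpl3, which lies near the peptidyl transferase centre. Their log2 fold changes were -0.74, -0.69, -0.44 and -0.49, with adjusted p of 0.0287, 0.0282, 0.0398 and 0.0461 by edgeR with the block. DESeq2 with the same block called 4 of the 68 genes, Mrpl10 and Mrps14 lower and Mrpl14 and Mrps21 higher.

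**Figure D2:**
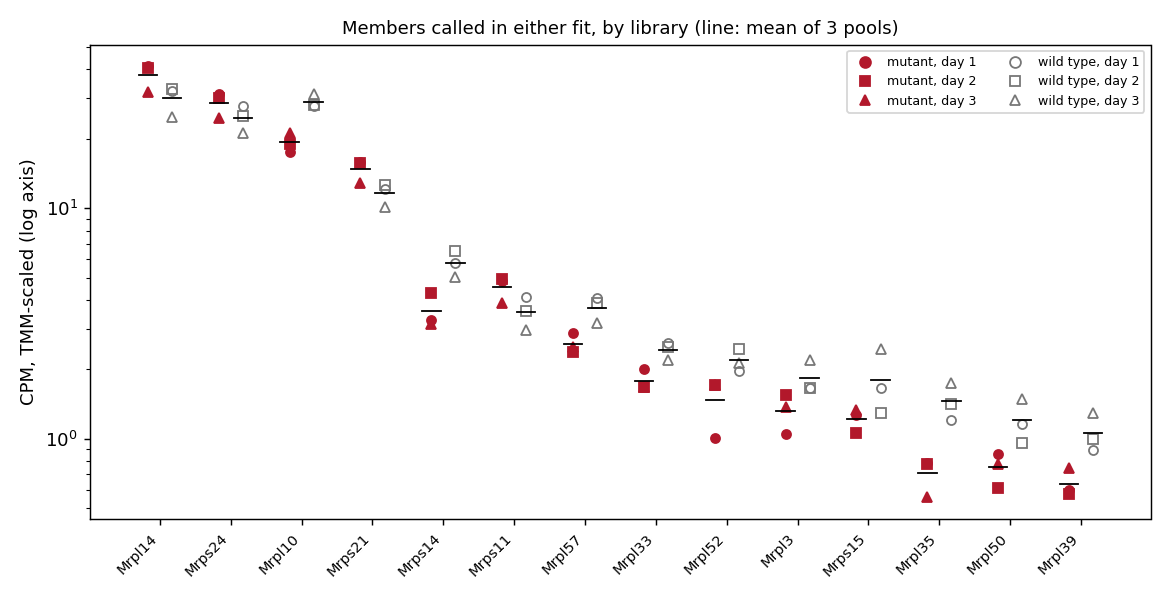
TMM-scaled CPM on a log axis for the 14 genes called in either fit, ordered by level, with mutant libraries as filled red symbols left of wild-type libraries as open grey symbols. Symbol shape gives the preparation day and the line the mean of 3 pools, and Mrpl10, Mrps14 and Mrpl35 show mutant libraries below every wild-type library.

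Mutant libraries all lay below every wild-type library for 13 of the 68 genes, a share of 19.1% against 15.9% of all genes. They lay all above for 1 gene, 1.47% against 20.4% of all genes. Under a mean of 3 CPM these counts were 9 and 0 of 51 genes, against 679 and 340 of 4443 genes. The 13 genes with mutant libraries below were the 3 called genes, Mrpl57, Mrpl39, Mrpl50, Mrpl52, Mrpl33 and Mrpl3, and Mrpl21, Mrps12, Mrpl4 and Mrpl43. Mrpl21 had 0.447, 0.449 and 0.630 CPM in mutant and 0.696, 0.707 and 0.937 CPM in wild-type libraries. It thus passed the level of 0.5 CPM mainly through wild type. Mrps12, at 0.447, 0.572 and 0.593 CPM in mutant libraries, lay near that level.

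Most fold changes of the family were small and negative. The log2 fold change was below 0 for 51 of the 68 genes, or 75%, against 54.3% of all genes. Its median was -0.23, with a range of -1.05 to 0.36, against a median of -0.04 over all genes. Counted by day on the scale of log2(CPM + 0.5), the family's median difference was -0.13, -0.12 and -0.17, against -0.02, -0.02 and -0.00 for all genes. The mutant library was lower on all 3 days for 31 of the 68 genes, against 3012 of all 9822 genes. It was higher on all 3 days for 4 of the 68, against 2956 of all genes. Wild-type replicate 3 held the highest value for 31 of the 68 genes, 45.6% against 24.9% of all genes, and without it the family's median was -0.14 and that of all genes 0.00. The 95% interval of the log2 fold change lay within a 2-fold change in either direction for 49 of the 68 genes, and within 1.5-fold for 17.

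The family stood further below all genes at low levels than at high ones, a contrast that was not tested. Among genes with a mean under 3 CPM, 43 of 51 of the family had a log2 fold change below 0, 84.3% against 65.8% of all genes, and the medians were -0.29 and -0.15. Mrpl1, Mrpl21 and Mrpl41 are among these 43. They passed 0.5 CPM mainly through wild type, so the listing favoured values below 0 for them. At a mean of 3 CPM or more, 8 of 17 of the family were below 0, 47.1% against 44.9%, and the medians were 0.05 and 0.06. The 4 genes at 10 CPM or more, Mrpl14, Mrps24, Mrpl10 and Mrps21, had a median of 0.28, against 0.15 for all genes at that level. Tested among genes of that level alone, 2 of these 4 were higher and 1 lower, where 34.1% of all 3017 genes were higher and 14.3% lower. Fold changes of all genes thus also ran from negative at low levels to positive at high levels, and the family sits at low levels. With a correction for length and GC content, the family's median was -0.17 and that of all genes -0.05. Divided by exon number, the medians were -0.26 for the 16 genes with at most 3 exons, -0.33 for 25 genes with 4 to 5 exons and -0.22 for 27 genes with 6 or more, against -0.20, -0.05 and -0.02 for all genes.

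**Figure D3:**
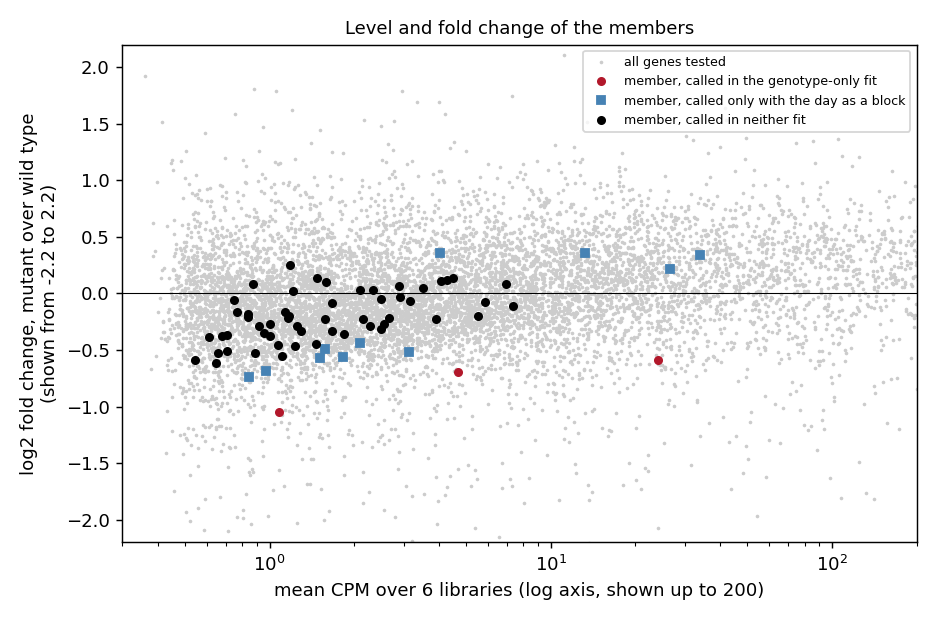
Log2 fold change, mutant over wild type (y axis), against the mean CPM over 6 libraries (log x axis, shown up to 200), with all genes tested as small grey points. Members are black where called in neither fit, blue squares where called only with the day as a block and red where called with genotype alone, and 51 of the 68 members lie under 3 CPM.

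The subunits had like medians. The log2 fold changes had a median of -0.27 over 47 genes of the large subunit, with 2 lower by the test and 45 not called, and of -0.20 over 20 genes of the small subunit, with 1 lower and 19 not called. In the large subunit the 27 genes with a bacterial counterpart had a median of -0.22 and the 20 specific to mitochondria one of -0.32. In the small subunit the 12 with a bacterial counterpart had a median of -0.29 and the 8 specific to mitochondria one of -0.10. All 3 called genes had bacterial counterparts, a class with 39 of the 68 genes.

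Genes with known roles in the ribosome can be set beside the called ones. Mrpl12, whose copies are held by Mrpl10 in the stalk, had 0.447, 1.14 and 1.15 CPM in mutant libraries and 0.812, 1.21 and 1.26 CPM in wild-type libraries. It was lower in the mutant library of each day, with overlap, and the log2 difference of -0.27 ± 0.32 (edgeR adjusted p = 0.612) has an error that does not separate it from the value of Mrpl10. Mrps12, at the decoding centre, differed by -0.53 ± 0.30 (edgeR adjusted p = 0.237). The groups did not overlap, at 12 to 16 counts in mutant and 17 to 26 counts in wild-type libraries. Mrpl45, which ties the ribosome to the inner membrane, had -0.29 ± 0.36 (0.621). Mrpl44, with a fold like that of RNase III and a locus that overlaps Wdfy1, had -0.38 ± 0.38 (0.535), and Mrpl58, a peptidyl-tRNA hydrolase that frees stalled ribosomes, had -0.46 ± 0.29 (0.293). Mrps36, which later work assigns to the oxoglutarate dehydrogenase complex, had -0.05 ± 0.21 (0.903). These 6 were named after their values were seen.

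Dap3, a GTP-binding protein of the small subunit first named for a role in cell death, had 2.65, 3.14 and 2.86 CPM in mutant libraries, against 2.09, 3.95 and 2.81 CPM in wild-type libraries. The wild-type libraries enclosed the mutant ones. Mutant pools averaged 2.88 ± 0.250 CPM and wild-type pools 2.95 ± 0.939 CPM (mean ± SD, n = 3). The log2 difference was -0.03, with a 95% interval of -0.48 to 0.43 (edgeR adjusted p = 0.943). Dap3 overlaps Ash1l, so its counts are uncertain. Of the lowest genes, Mrpl1 differed by -0.59 ± 0.35, Mrpl17 by -0.55 ± 0.28 and Mrps25, which overlaps Nr2c2, by 0.08 ± 0.31, with edgeR adjusted p of 0.254, 0.175 and 0.883. Mrpl1 stood at 0.298, 0.368 and 0.630 CPM in mutant libraries and at 0.657, 0.624 and 0.678 CPM in wild-type libraries, so it passed the level of 0.5 CPM mainly through wild type.

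The family's summed CPM was lower in the mutant library on each day, while its summed RPKM was higher on each day. The group means differed by -0.06 and 0.03 on the log2 scale, and the family's share of unscaled counts by -0.15. The 68 genes summed to 226.6, 236.5 and 212.4 CPM in mutant libraries, against 233.8, 243.2 and 228.7 CPM in wild-type libraries, with overlap between groups, and to 265.3 ± 18.3 RPKM per mutant pool and 259.2 ± 14.1 RPKM per wild-type pool (mean ± SD, n = 3). The 4 most abundant genes summed to 105.8, 105.5 and 90.7 CPM in mutant libraries and 99.6, 98.7 and 87.4 CPM in wild-type libraries. This sum was higher in the mutant on each day, although Mrpl10, which is part of it, fell. The other 64 summed to 120.8, 131.0 and 121.7 CPM in mutant libraries, against 134.1, 144.5 and 141.2 CPM in wild-type libraries, without overlap. The 4 most abundant genes held 44.7% ± 2.01 of the family's counts in mutant libraries, against 40.5% ± 2.19 in wild-type ones (mean ± SD, n = 3).

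**Figure D4:**
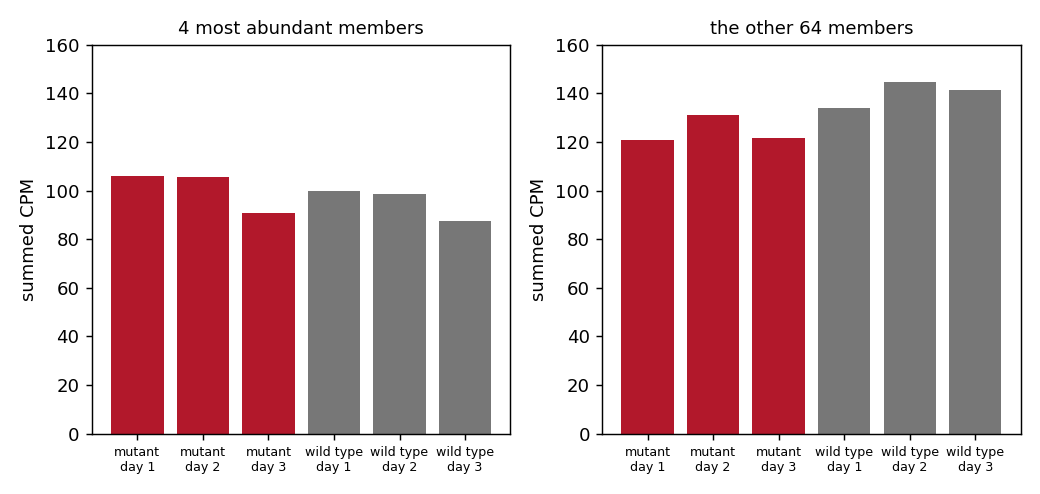
Summed CPM per library of the 4 most abundant genes, Mrpl14, Mrps24, Mrpl10 and Mrps21 (left), and of the other 64 (right), with mutant libraries in red left of wild-type libraries in grey. Among the other 64, mutant libraries reach 120.8 to 131.0 CPM and wild-type libraries 134.1 to 144.5 CPM.

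Members lay on 17 chromosomes, with 10 on chromosome 11, 7 on chromosome 6 and 6 on chromosome 17. A start site on the opposite strand within 1000 bases, of another tested gene, was found for 15 of the 59 members with promoter entries (25.4%) and for 891 of 7606 tested genes (11.7%). Mrpl46 and Mrps11, both members, start 42 bases apart, with log2 fold changes of -0.51 ± 0.30 and 0.36 ± 0.18. Mrpl49 (-0.23, edgeR adjusted p = 0.552) starts 192 bases from Fau (-0.64, 0.0013), which encodes a cytosolic ribosomal protein, and Mrps27 (0.14, 0.74) 108 bases from Ptcd2 (0.86, 0.00106). These partners were named after their values were seen. Of the members, 12 overlap another tested gene, which makes their counts uncertain without strand, and none of these was called with genotype alone.

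Most other genes of mitochondrial translation were without a call, as were 7656 of all 9822 genes. Of 30 listed assembly factors 18 had a row, 2 higher, 1 lower and 15 not called. With only 18 genes, their shares of 11.1% higher and 5.56% lower were near the 12.9% and 9.16% of all genes. Ngrn, which is needed for the RNA of the large subunit, fell to 1.88 ± 0.111 CPM in mutant pools, against 4.02 ± 0.340 CPM in wild-type pools (mean ± SD, n = 3). The log2 difference was -1.09 ± 0.19 (edgeR adjusted p = 2.50e-04), and it was called in all 21 alternatives that tested it. Spg7, a subunit of the inner-membrane protease that processes Mrpl32, rose to 7.79 ± 0.383 CPM in mutant pools, against 4.86 ± 0.446 CPM in wild-type pools, or by 0.68 ± 0.15 on the log2 scale (edgeR adjusted p = 0.00234). It lost the call without day 2 (0.67, adjusted p = 0.0511). Rbfa, which helps the small subunit mature, had 9.03 ± 0.311 CPM in mutant pools and 6.74 ± 0.728 CPM in wild-type pools, a rise of 0.42 ± 0.14 (edgeR adjusted p = 0.0373) that lost the call in 13 of 21 alternatives, among them without 5 of the 6 libraries in turn.

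None of the 4 further ribosome subunits (Aurkaip1, Chchd1, Gadd45gip1 and Ptcd3), of the translation factors (12 of 18 with a row), aminoacyl-tRNA synthetases (13 of 24) or transcription genes (7 of 11) was called with genotype alone. Of all genes 12.9% were higher and 9.16% lower, but under a mean of 3 CPM only 133 and 289 of 4443 genes. The 4 lists are short and had median levels of 0.94 to 1.38 CPM, so few calls could arise there. With the block, the small-subunit protein Chchd1 (-0.76), the recycling factor Mrrf (-0.31) and Kars (-0.40), a synthetase that also serves the cytosol, were lower on the log2 scale. The recycling GTPase Gfm2 (0.48) and the mitochondrial DNA polymerase Polg (0.47) were higher, and these 5 were named after their values were seen. In that fit 18% of all genes were lower and 22% higher. The medians were -0.21, -0.22, -0.41 and 0.03 for these 4 lists. Of the 13 mitochondrially encoded messages, ATP8 was called higher, a share of 7.69% against 12.9% of all genes. Its difference of 0.51 ± 0.12 (edgeR adjusted p = 0.00388) is uncertain because ATP8 overlaps ATP6 on the genome. It lost the call without mutant replicate 2 (0.44, adjusted p = 0.0631) and without day 1 (0.47, 0.11). All 13 had log2 fold changes above 0, from 0.05 to 0.51, with a median of 0.15, the same as all genes at 10 CPM or more. With the block 5 were called higher, where 22% of all genes were. Small rises depend on the scaling, since TMM factors from genes of at least 10 CPM moved the median of all genes from -0.04 to -0.21. The ribosomal RNAs that the family binds, mt-Rnr1 and mt-Rnr2, differed by -0.07 ± 0.13 and -0.15 ± 0.13 (edgeR adjusted p of 0.764 and 0.454), and were named after their values were seen.

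The proteins of the cytosolic ribosome gave a different count. Of 79 such genes 56 were lower (70.9%, against 9.16% of all genes) and 0 higher, with a median log2 fold change of -0.60. The mitochondrial ones had 3 lower of 68 and a median of -0.23. With the block, 70 of the 79 were lower, against 10 of the 68 and 18% of all genes. Rps19 fell by 0.92 on the log2 scale (adjusted p = 1.77e-04, edgeR), and Rps27rt, a near-identical copy of another ribosomal gene and thus uncertain, fell by 0.78 (5.27e-05). The cytosolic genes were more abundant, with a median of 7.64 CPM, and the difference between the families was not tested.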

How the data were processed

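The tables that the authors deposited hold a whole-number count and a length for each gene in each of 6 platelet pools, per the file headers. The submitters' processing notes name CASAVA 1.8.2, Subread, featureCounts and mm10, without their roles, settings or any use of strand. RefSeq (GRCm38.p6, the assembly of mm10) named 9636 of the 9822 Entrez identifiers. The members, lists and the rule for named genes were chosen with earlier results of these data known. That rule took members called with genotype alone, up to 6 called only with the block, Dap3, the 3 highest and 3 lowest by RPKM, up to 3 called genes per list and Nxf1, and 1 of the genes it took is not reported here.

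Counts were tested with edgeR 4.0.16 (R 4.3.3), using TMM scaling, a robust quasi-likelihood fit, two-sided tests and Benjamini-Hochberg adjustment at 0.05. The filterByExpr step removed 0 genes. CPM used TMM-scaled totals, and RPKM was CPM per kilobase of the deposited length. An SE was obtained as the absolute log2 fold change over the square root of F. The biological coefficient of variation came to 14.2%, or to 5.73% once the day was a block. Alternatives were DESeq2 1.42.0, limma-voom (limma 3.58.1), other scalings and filters, offsets for length and GC content (loess, span 0.5) and left-out libraries or days. TMM factors from genes of at least 10 CPM were added after seeing the data. The stricter filter kept the factors of the whole table. Fits were also run on counts simulated with the spread of the genotype-only fit. That simulation held no day effect, so it cannot check the fit with the block against one.

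A batch number in the labels marks the preparation day and pairs the libraries. Same-day libraries deviated from their group means together across genes (correlations of 0.431, 0.271 and 0.482), and libraries of different days did not (-0.0104 at most). Deviations from a group mean sum to 0, so the negative values follow in part from the positive ones and are not separate evidence. Replicates differed beyond sampling noise, with a mean chi-square per gene of 14.5 or more. Intervals cover the spread between pools only.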

Additional observations from a re-analysis of the deposited data

How the results depend on the processing

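Of 22 alternatives, 20 were planned. The planned fit without a filter gave the values of the main fit, because the filter removed 0 genes. With the replicate block in edgeR, 3929 genes were called in all, against 2166 with genotype alone, and 4 of the 68 genes were higher and 10 lower, against 0 and 3. With DESeq2 and the block 2 were higher. With the length and GC correction 2 were higher, and with that correction and the block 4001 genes were called in all, 4 of the family higher and 7 lower. Among genes of at least 10 CPM, 34.1% of 3017 were higher and 14.3% lower, with a median log2 fold change of 0.15, and of 4 of the family tested 2 were higher and 1 lower, with a median of 0.28. With TMM factors from genes of at least 10 CPM, chosen after seeing the data, 5 were lower, and 807 of all genes were higher and 1397 lower, against 1266 and 900. With those factors and the block, 4706 genes were called, 1 of the family higher and 25 lower.

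The family's median, -0.23, was -0.28 with upper-quartile factors, -0.32 with library size alone, -0.27 without the 10 most abundant genes, -0.17 with the length and GC correction and -0.16 with that and the block. It was -0.40 with factors from genes of at least 10 CPM, with or without the block. Its distance from the median of all genes was -0.19 with TMM, upper-quartile factors, library size alone, the 10 genes left out and factors from genes of at least 10 CPM. Those settings rescale whole libraries, so they shift the family and all genes together. The distance was -0.12 with the length and GC correction. It ran from -0.23 without wild-type replicate 1 to -0.14 without wild-type replicate 3. Among genes of at least 10 CPM, with 4 of the family, it was 0.13. The cause of these moves was not tested.

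Leaving out each library in turn gave 1382 genes (without mutant replicate 2) to 2276 genes (without mutant replicate 3), 0 to 2 higher and 3 to 4 lower in the family, and medians of -0.32 to -0.14. Without day 1, day 2 and day 3 the medians were -0.27, -0.28 and -0.17. Then 1197, 1005 and 2389 genes were called, and without day 3 Mrpl14 and Mrps21 were higher. Mrpl10 and Mrps14 kept their calls in every alternative that tested them. Over all alternatives for the genes named by the rule, 33 values gained and 18 lost a call, and 395 kept their side of the threshold. Counts as low as 8 limit the rarest genes.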
